A study of Homo sapiens with 4 samples.

Results

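The interferon response and MHC class I genes were examined as a list of 39 genes among the 19912 gene identifiers counted by RNA sequencing. The list was set by name, from knowledge of the pathway and with earlier results of these data known. It holds 4 interferon receptor chains, 6 transcription factors of the response, 2 sensors of viral RNA, 18 interferon-induced effectors, and 9 genes of MHC class I and its peptide supply. All 39 were found in the table. The groups were GFI1-KO cells (2 libraries) and WT cells (2 libraries), both being GATA2/eGFP+ endothelial cells obtained from H1, a human embryonic stem cell line. The cells of both groups were thus positive for a reporter of GATA2, a transcription factor of blood-forming endothelium, and none is labelled as treated with interferon. GFI1 is a transcriptional repressor known to silence endothelial genes as blood forms from endothelium, and the libraries compare its loss with the WT genotype. How many clones stand behind each genotype is not given in the sources used here. Nor do the labels call the replicates separate cultures, and p-values accordingly measure the spread between these 4 libraries alone, which may be technical.

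Type I interferons signal through IFNAR1 and IFNAR2, and interferon gamma through IFNGR1 and IFNGR2. The receptors activate JAK kinases and STAT proteins, and a complex of STAT2, IRF9 and a further STAT protein enters the nucleus and binds the interferon-stimulated response element (ISRE) of its target genes. The targets include RNA-binding antiviral proteins (IFIT, OAS), membrane proteins that hinder viral entry (IFITM) and ubiquitin-like ISG15. Interferons also raise MHC class I, the complex of a heavy chain with beta-2-microglobulin (B2M) that shows peptides to T cells, together with the transporter and the immunoproteasome that supply those peptides. Pluripotent stem cells are known for a weak interferon response, and many endothelial cells for a strong one.

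The targeted gene GFI1 had 19.9 and 19.6 CPM (read counts scaled to a common, TMM-adjusted library total) in the GFI1-KO libraries, against 58.5 and 58.3 CPM in the WT libraries. The log2 fold change, GFI1-KO over WT here and throughout, was -1.57 with an SE of 0.31, and the adjusted p was 0.0215 (quasi-likelihood test of edgeR, Benjamini-Hochberg adjustment over all genes tested). The position of the lesion in the gene was not used here, and an edited gene can still give reads. GATA2, the gene of the reporter, fell to 139 and 124 CPM in GFI1-KO, against 293 and 252 CPM in WT (edgeR adjusted p = 0.0376; log2 fold change -1.09, SE 0.24); the part of this difference in the results below was not tested. Total counts were 146584 and 2332621 in GFI1-KO replicates 1 and 2, and 2239214 and 2417410 in WT replicates 1 and 2. A single count was therefore worth 6.62 CPM in GFI1-KO replicate 1 and 0.42 to 0.447 CPM in the other libraries, and 3 counts, the floor below which a level is not read here, were worth 19.9 CPM and 1.26 to 1.34 CPM. Tested genes had a median of 6 counts in GFI1-KO replicate 1 and of 86 to 91 counts in the others. Endothelial identity was clear in both groups: CDH5 (VE-cadherin) stood at 894 and 1008 CPM in GFI1-KO and 643 and 720 CPM in WT. Of 12 endothelial markers tested, 1 (EMCN) passed the threshold, being higher in GFI1-KO. Of the 12 log2 fold changes, 11 were above 0, all but that of PECAM1. The genotypes did not overlap for 9 of 12 (75.0%, against 41.2% of all genes tested). At an unadjusted p under 0.05, edgeR gave 5 of 12 (41.7%, against 9.35%). The 12 summed to 8208 and 9838 CPM in GFI1-KO and 6936 and 7154 CPM in WT. The part of this difference in the results below was not tested. The leukocyte markers PTPRC and CD3E had 0 counts in all 4 libraries, and the 10 leukocyte and macrophage markers summed to 19.9 and 18.2 CPM in GFI1-KO and 21.0 and 24.8 CPM in WT. The 8 pluripotent stem cell markers summed to 848 and 874 CPM in GFI1-KO and 1074 and 1166 CPM in WT, with NANOG at 0 counts. Most of each sum was LIN28A (523 and 462 CPM in GFI1-KO, 603 and 635 CPM in WT). POU5F1 had 0 and 5 counts in GFI1-KO and 4 and 13 counts in WT. All 4 tested markers were lower in GFI1-KO without overlap (41.2% of all genes tested did not overlap), and none passed.

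The sequences below show that the motif through which interferon acts was shared by genes at very different levels in these cells. RefSeq promoter windows (GRCh38.p14, 250 bases before to 50 after a gene's start) were held for 31 of the 39 genes, in 40 windows. The ISRE core was searched on both strands as GAAA, any 2 bases and GAAA, which reads as TTTC, any 2 bases and TTTC on the other strand. It was present in 19 of the 31 genes (61.3%) and in 13 of the 15 effectors with a window (86.7%), against 4.38% of all 27305 genes and 3.57% of all 35116 windows. These are matches of letters, not sites of binding. The gamma-activated sequence (GAS), searched as TTCNNNGAA, was present on either strand in 9 of the 31 genes, against 9.38% of all genes, and its matches can share letters with an ISRE core. The core AATCNNNGC, the letters GFI1 is known to bind, searched on both strands, was present in 3 of the 31 (DDX58, IFI35 and TAPBP; 9.68%), against 13.2% of all genes. Each stretch is written from 5′ to 3′ on the strand of its gene, with the match in capitals. ISG15 (chr1:1013369-1013414, + strand), IFIT3 (chr10:89332420-89332459, +), IFITM3 (chr11:320888-320927, -), IFI27 (chr14:94110613-94110652, +), IFI44L (chr1:78620269-78620308, +), B2M (chr15:44711358-44711403, +), TAP1 (chr6:32853808-32853853, -) and PARP14 (chr3:122680795-122680834, +), a gene outside the list described further on, hold ISRE cores. IRF1 (chr5:132490874-132490912, -) holds a GAS.
ISG15: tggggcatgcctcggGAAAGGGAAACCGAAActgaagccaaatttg
IFIT3: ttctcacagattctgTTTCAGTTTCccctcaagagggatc
IFITM3: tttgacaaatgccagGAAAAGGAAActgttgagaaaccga
IFI27: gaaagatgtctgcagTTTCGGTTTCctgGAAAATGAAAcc
IFI44L: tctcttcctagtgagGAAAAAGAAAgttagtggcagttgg
B2M: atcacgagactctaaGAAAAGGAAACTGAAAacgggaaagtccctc
TAP1: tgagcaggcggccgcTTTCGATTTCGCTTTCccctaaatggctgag
PARP14: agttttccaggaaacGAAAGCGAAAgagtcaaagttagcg
IRF1: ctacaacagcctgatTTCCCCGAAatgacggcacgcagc

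No gene of the list passed the test for a change with the loss of GFI1. Of the 39 genes, 16 had too few counts to be tested (41.0%, against 42.8% of all genes). Of the 23 tested, 0 passed the threshold (adjusted p under 0.05), where 109 of 11380 genes (0.958%) passed over the whole table, 88 of them higher (0.773%) and 21 lower (0.185%) in GFI1-KO. At this background a count of 0 among 23 is not a result that sets these genes apart. DESeq2 also passed 0, of the 18 to which it gave an adjusted p, and limma-voom 0 of 23. At an unadjusted p under 0.05, edgeR gave 1 of 23 (IFIT3; 4.35%), against 9.35% of all genes tested. The log2 fold changes of the 23 ran from -0.96 (IFNAR2) to 1.32 (IRF1), with 13 above 0, 10 below and a median of 0.091, beside a median of -0.024 over all genes tested; the median of the list was -0.021 when GFI1-KO replicate 1 was left out and 0.45 when GFI1-KO replicate 2 was, against 0.32 without WT replicate 1 and -0.066 without WT replicate 2. The libraries of the 2 genotypes did not overlap for 5 of the 23 genes (21.7%), against 41.2% of all genes tested. STAT2, IRF7 and IFIT3 lay above WT in both GFI1-KO libraries, and IFNAR2 and HLA-C below it. In bulk RNA of this kind, fewer cells with a transcript and less of it per cell cannot be told apart.

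**Figure D1:**
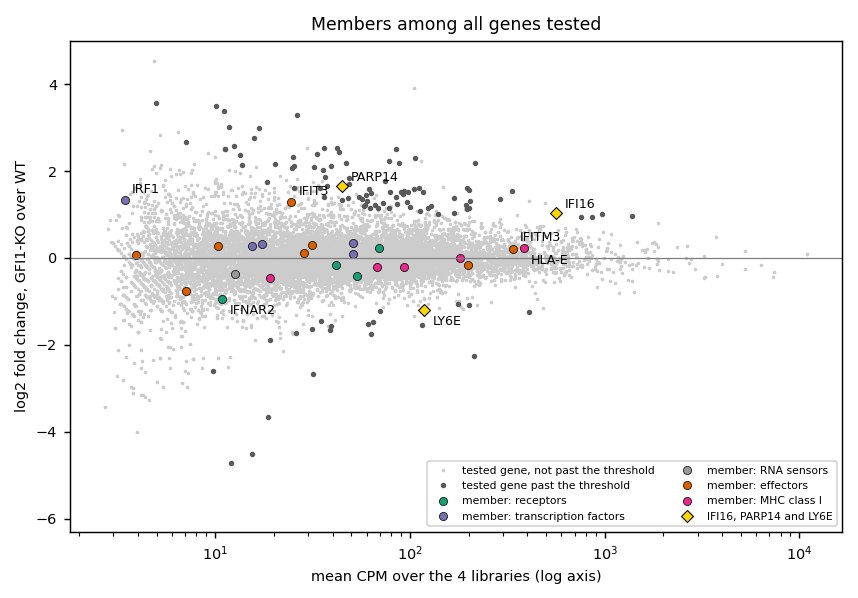
Log2 fold change (GFI1-KO over WT, vertical) against the mean CPM over the 4 libraries (horizontal, log axis) for each gene tested; dark grey points passed the threshold, coloured points are genes of the list by role, and diamonds are 3 other pathway genes. The 23 coloured points lie between -0.96 and 1.32, within the grey cloud, and IFIT3 stands close to PARP14.

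The 4 interferon receptor genes were all tested, and none passed. IFNAR1, a signalling chain of the type I receptor, had 19.9 and 49.0 CPM in GFI1-KO, against 58.5 and 39.9 CPM in WT. IFNAR2, its high-affinity partner, had 6.62 and 7.57 CPM in GFI1-KO, against 18.3 and 10.9 CPM in WT. IFNAR2 was lower in both GFI1-KO libraries, with no overlap, but its GFI1-KO replicate 1 value rests on 1 count, and the log2 fold change of -0.96 (SE 0.51; 95% interval -2.03 to 0.12) did not pass (edgeR adjusted p = 0.62). In addition, 83.2% of the annotated exon bases of IFNAR2 are shared with overlapping genes, so how its reads were assigned is uncertain. The ligand-binding chain of the interferon gamma receptor, IFNGR1, had 92.7 and 64.1 CPM in GFI1-KO, against 65.6 and 53.7 CPM in WT. IFNGR2, the signalling chain, had 46.4 and 45.0 CPM in GFI1-KO, against 76.8 and 44.9 CPM in WT. Both gamma receptor chains overlapped between the genotypes, as did IFNAR1. The 4 receptor genes summed to 166 and 166 CPM in GFI1-KO, against 219 and 149 CPM in WT, with 3 of 4 log2 fold changes below 0 and a median of -0.29.

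Of the 6 transcription factors, 5 were tested and none passed. STAT2 had 59.6 and 55.6 CPM in GFI1-KO, against 49.6 and 39.9 CPM in WT. Both GFI1-KO libraries were higher, and the log2 fold change of 0.34 (SE 0.27; 95% interval -0.24 to 0.91) did not pass (edgeR adjusted p = 0.835). IRF7, the factor that amplifies type I interferon production, had 19.9 and 19.1 CPM in GFI1-KO, against 14.7 and 15.9 CPM in WT, also without overlap (log2 fold change 0.32, SE 0.40; edgeR adjusted p = 0.913). IRF3, which is present before infection and is activated by phosphorylation, had 66.2 and 45.4 CPM in GFI1-KO, against 44.2 and 47.8 CPM in WT. IRF2, a competitor of IRF1 at the same DNA element, had 33.1 and 8.9 CPM in GFI1-KO, against 12.1 and 7.55 CPM in WT, and the high value rests on 5 counts. IRF1, the early interferon gamma target whose GAS is printed above, had 0 and 18 counts in GFI1-KO, against 10 and 3 counts in WT. Its fitted log2 fold change of 1.32 (SE 0.75; 95% interval -0.25 to 2.90; edgeR adjusted p = 0.653) is the largest of the 23, yet the 0 counts in GFI1-KO replicate 1 allow up to 19.9 CPM there. IRF9, the DNA-binding partner of STAT2, was not tested, with 0 and 5 counts in GFI1-KO and 4 and 2 counts in WT. Of its annotated exon bases, 48.4% are shared with an overlapping gene, so the assignment of its reads is uncertain. All 5 tested factors had a log2 fold change above 0, with a median of 0.32. The 6 factors summed to 179 and 139 CPM in GFI1-KO, against 127 and 113 CPM in WT.

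Of the RNA sensors, DDX58 alone was tested. DDX58, which encodes RIG-I, had 13.2 and 10.2 CPM in GFI1-KO, against 14.3 and 13.0 CPM in WT (log2 fold change -0.37, SE 0.46; edgeR adjusted p = 0.915), so the genotypes overlapped. IFIH1, which encodes the long-RNA sensor MDA5, had 0 counts in both GFI1-KO libraries, and 3 and 0 counts in WT.

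Of the 18 effectors, 8 were tested, none of them passed, and 10 had too few counts to be tested. By the mean over the 4 libraries, the tested OAS3 (0.476 CPM per kb) lay below the untested IFI6 (2.04 CPM per kb). That IFI6 mean rests mostly on 1 count in GFI1-KO replicate 1, below the floor. In GFI1-KO replicate 2 and the WT libraries, OAS3 had 0.701, 0.541 and 0.661 CPM per kb, against 0, 0.516 and 0 for IFI6. The 10 untested effectors (ISG20, IFIT2, IFI6, IFI27, IFI35, IFI44, IFI44L, MX1, OAS1 and OAS2) together had 3 and 10 counts in GFI1-KO, against 6 and 17 counts in WT. IFI44L, whose promoter holds an ISRE core, had 0 counts in all 4 libraries. MX1, a GTPase that blocks viral nucleoproteins and a common marker of interferon exposure, had 0 and 1 counts in GFI1-KO and 0 and 2 counts in WT. IFI27 had 1 and 2 counts in GFI1-KO and 2 and 4 counts in WT, and IFI6 had 1 and 0 counts in each genotype. GFI1-KO replicate 1, with its 146584 counts, could not show most of these genes at the level of the other libraries, so a difference between genotypes was not detectable at this depth.

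**Figure D2:**
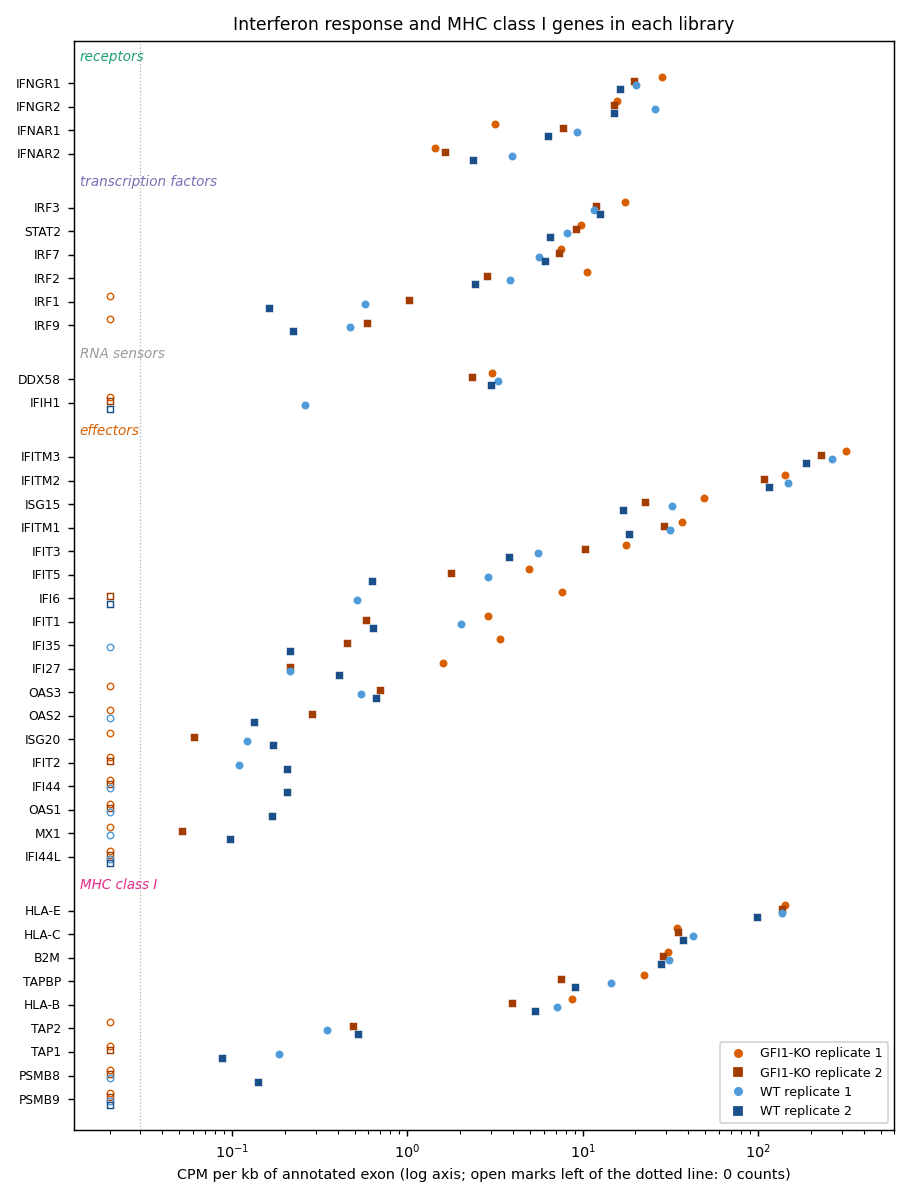
Level of each of the 39 genes in each library, as CPM per kb of annotated exon on a log axis, grouped by role; orange marks are GFI1-KO and blue marks WT, with circles for replicate 1 and squares for replicate 2, and open marks left of the dotted line stand for 0 counts. The IFITM genes and HLA-E lie at the right in all 4 libraries, while IFI44L and PSMB9 have only open marks.

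IFITM3, a membrane protein that hinders fusion of viruses in endosomes, was the highest effector. It had 431 and 310 CPM in GFI1-KO, against 358 and 254 CPM in WT, and the genotypes overlapped (log2 fold change 0.21, SE 0.24; 95% interval -0.30 to 0.73; edgeR adjusted p = 0.907). Its relative IFITM2 had 219 and 166 CPM in GFI1-KO, against 230 and 179 CPM in WT. IFITM1, the form found mostly at the cell surface, had 39.7 and 31.6 CPM in GFI1-KO, against 33.9 and 19.7 CPM in WT. The 3 IFITM genes together had 689 and 507 CPM in GFI1-KO, against 622 and 453 CPM in WT, with the higher value in replicate 1 of each genotype. Their split is uncertain, since 32.0% of the 50-base stretches of IFITM1, 34.1% of those of IFITM2 and 17.4% of those of IFITM3 recur in other genes.

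ISG15, the ubiquitin-like modifier, had 46.4 and 21.4 CPM in GFI1-KO, against 30.4 and 15.9 CPM in WT (log2 fold change 0.12, SE 0.43; edgeR adjusted p = 0.982). The IFIT proteins bind viral RNA, and their genes lie side by side on chromosome 10. IFIT3 had 46.4 and 27.2 CPM in GFI1-KO, against 14.7 and 10.1 CPM in WT, that is 7 and 61 counts against 33 and 24. Both GFI1-KO libraries were above both WT libraries, with a log2 fold change of 1.29 (SE 0.41; 95% interval 0.43 to 2.15). Its unadjusted p was 0.00551 and its edgeR adjusted p 0.186 over all genes tested, so it did not pass. Neither tested neighbour in the cluster passed. IFIT1, which recognises uncapped or unmethylated RNA ends, had 13.2 and 2.67 CPM in GFI1-KO, against 9.38 and 2.94 CPM in WT (log2 fold change -0.76, SE 0.82; edgeR adjusted p = 0.89). IFIT5 had 19.9 and 7.12 CPM in GFI1-KO, against 11.6 and 2.52 CPM in WT, and IFIT2 had 0 counts in both GFI1-KO libraries and 1 and 2 counts in WT. For IFIT1 and IFIT5 the spread within a genotype exceeded the distance between genotypes, and both were higher in replicate 1. In GFI1-KO replicate 1, however, IFIT1 had 2 counts, below the floor, and IFIT5 had 3. OAS3, which makes the second messenger of RNase L, had 0 and 13 counts in GFI1-KO, against 10 and 13 counts in WT. The 8 tested effectors had 6 log2 fold changes above 0 and 2 below, with a median of 0.17.

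**Figure D3:**
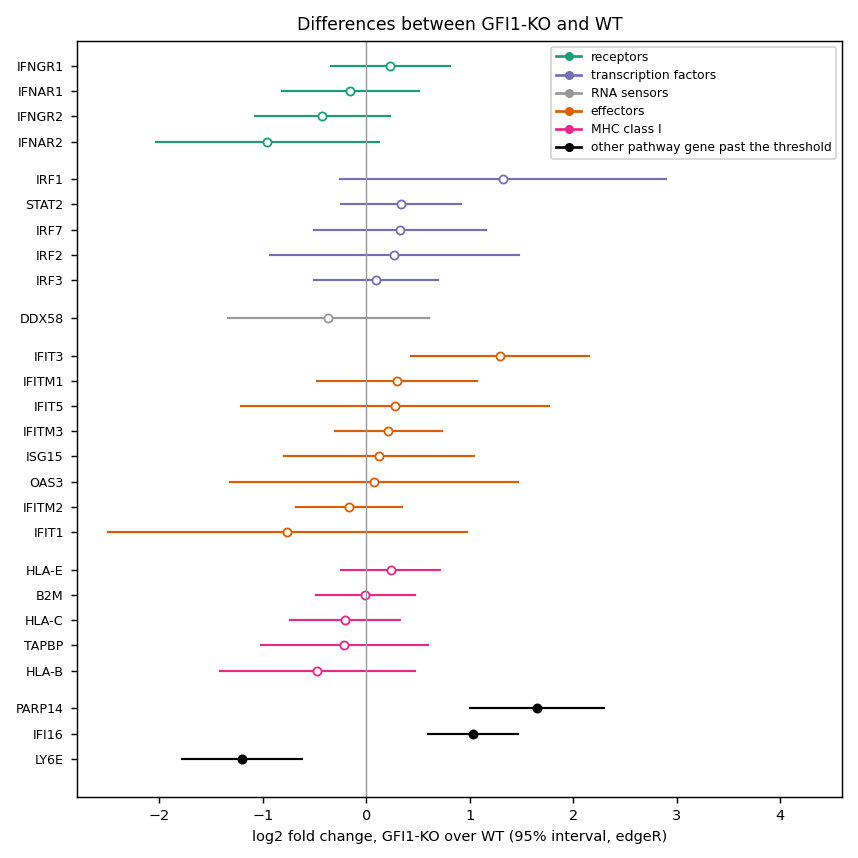
Log2 fold change, GFI1-KO over WT, of the 23 tested genes of the list by role, with 95% intervals from edgeR, and of the 3 other pathway genes that passed the threshold (filled marks, adjusted p under 0.05). All intervals of the list span 0 except that of IFIT3, from 0.43 to 2.15, whose adjusted p was 0.186.

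None of the genes of the MHC class I complex itself passed, and B2M, HLA-E and HLA-C were better read than HLA-B. B2M had 185 and 175 CPM in GFI1-KO, against 189 and 170 CPM in WT. The 2 WT libraries enclosed both GFI1-KO libraries, and the log2 fold change was -0.0093 (SE 0.23; 95% interval -0.49 to 0.47; edgeR adjusted p = 0.999). HLA-E, a heavy chain of little variability that engages receptors of natural killer cells, had 424 and 409 CPM in GFI1-KO, against 410 and 294 CPM in WT (log2 fold change 0.24, SE 0.23; 95% interval -0.24 to 0.72; edgeR adjusted p = 0.873). HLA-C, a classical heavy chain, had 86.1 and 87.2 CPM in GFI1-KO, against 107 and 93.2 CPM in WT. Both HLA-C values in GFI1-KO were lower, but the log2 fold change of -0.20 did not pass (95% interval -0.73 to 0.33; edgeR adjusted p = 0.915). HLA-B, also classical, had 26.5 and 12.0 CPM in GFI1-KO, against 21.9 and 16.4 CPM in WT. These rest on 4 and 27 counts in GFI1-KO and 49 and 39 in WT. Its log2 fold change of -0.47 was loosely measured (SE 0.45; 95% interval -1.41 to 0.47; edgeR adjusted p = 0.868). The heavy chains are variable between people and alike in sequence, and 5.38% of the 50-base stretches of HLA-C, 4.34% of those of HLA-E and 2.72% of those of HLA-B recur in other genes, so their levels carry that uncertainty. Overlapping genes, HLA-C among them, also share 18.9% of the annotated exon bases of HLA-B, so how its reads were assigned is uncertain. HLA-B, HLA-C, HLA-E and B2M summed to 722 and 684 CPM in GFI1-KO, against 728 and 574 CPM in WT.

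Of the genes that supply peptides to the complex, TAPBP alone was tested. TAPBP (tapasin), which bridges the heavy chain and the transporter, had 113 and 38.3 CPM in GFI1-KO, against 73.2 and 45.7 CPM in WT, and its spread within GFI1-KO enclosed both WT values. TAP1 and TAP2, the subunits of the peptide transporter, were not tested. TAP1 had 0 counts in both GFI1-KO libraries, and 2 and 1 counts in WT; TAP2 had 0 and 7 counts in GFI1-KO, and 5 and 8 in WT. The inducible subunits of the immunoproteasome had close to no counts. PSMB9 had 0 counts in all 4 libraries, and PSMB8 had 1 count, in WT replicate 2. The third inducible subunit PSMB10, outside the list, had 0 counts in both GFI1-KO libraries and 1 and 6 counts in WT. Overlapping genes share 32.3% of the annotated exon bases of TAP2, 20.6% of those of PSMB8 and 34.8% of those of PSMB10. How their reads were assigned is thus uncertain. Together the 3 inducible subunits had 0 and 0 counts in GFI1-KO, against 1 and 7 counts in WT. The constitutive subunits that they replace, PSMB5, PSMB6 and PSMB7, had 55 and 827 counts in GFI1-KO, against 991 and 955 counts in WT. PSMB5 did not pass (edgeR adjusted p = 0.673; log2 fold change -0.42, SE 0.24). In both genotypes almost all counts of catalytic proteasome genes were those of the constitutive subunits. The 5 tested genes of MHC class I and its peptide supply had a median log2 fold change of -0.20, with 1 above 0 and 4 below.

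**Figure D4:**
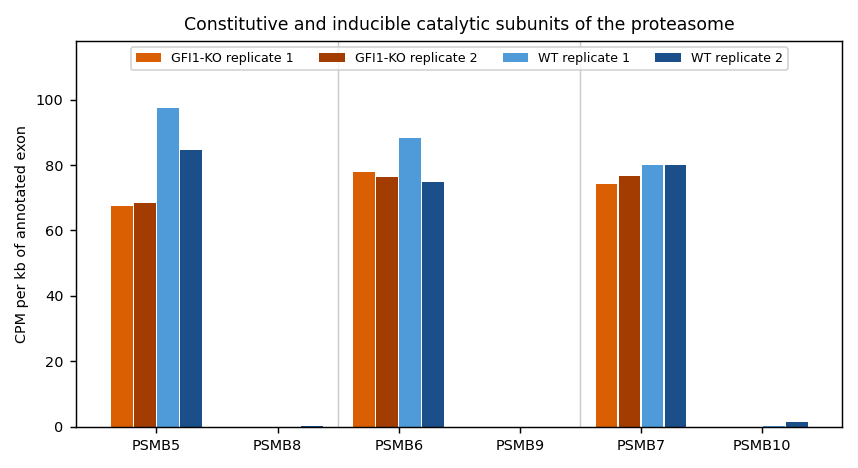
CPM per kb of annotated exon of the constitutive catalytic proteasome subunits PSMB5, PSMB6 and PSMB7 and of the inducible subunit that replaces each (PSMB8, PSMB9 and PSMB10), in each library, with bars in the order GFI1-KO replicates 1 and 2 and WT replicates 1 and 2. The inducible subunits had 0 and 0 counts in GFI1-KO and 1 and 7 counts in WT, so their bars are at or near 0.

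Levels were set against each other per kb of annotated exon, which takes in the exons of all transcripts annotated for a gene. This length was 6.079 kb for B2M, 2.507 kb for HLA-C and 0.941 kb for ISG15. Before division by it, B2M had 170 to 189 CPM, HLA-C 86.1 to 107 CPM and ISG15 15.9 to 46.4 CPM. The order below thus depends on the annotated lengths, and which transcripts the cells made was not tested. The highest mean level over the 4 libraries was that of IFITM3, at 251 CPM per kb, above 99.5% of all genes in the table or level with them. HLA-E and IFITM2 followed at 129 CPM per kb each and did not differ beyond their spread. Below a gap came HLA-C at 37.3, ISG15 at 30.3, B2M at 29.6 and IFITM1 at 28.9 CPM per kb, each overlapping its neighbour in this order, and then IFNGR1 at 21.1 and IFNGR2 at 18.0 CPM per kb. Only IFITM3 and HLA-E, and IFITM2 and HLA-C, were neighbours in the order whose libraries did not overlap. IFIT3 stood at 13.9 CPM per kb in GFI1-KO and 4.70 CPM per kb in WT. The lower end was MX1 at 0.0373 and PSMB8 at 0.035 CPM per kb, with IFI44L and PSMB9 at 0. Of the 13 effectors with an ISRE core in a promoter window, 7 were tested and 6 were not, and their levels ran from 0 to 251 CPM per kb with a median of 1.53.

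Most genes of the list were higher in replicate 1 than in replicate 2 of both genotypes. This held for 16 of the 23 tested genes (69.6%), against 24.5% of all genes tested. In GFI1-KO, 18 of the 23 were higher in replicate 1 (78.3%, against 44.1% of all genes), and in WT 20 of the 23 were (87.0%, against 50.3%). The median log2 difference, replicate 1 over replicate 2 on the log2(CPM + 1) scale, was 0.34 in GFI1-KO and 0.49 in WT, against -0.10 and 0.003 for all genes tested. IFIT1 (13.2 against 2.67 CPM in GFI1-KO, 9.38 against 2.94 CPM in WT) and IFIT5 had among the widest such differences. Their GFI1-KO replicate 1 values rest on 2 counts (IFIT1, below the floor) and 3 counts (IFIT5). The IFITM genes and TAPBP went the same way. The WT replicates were alike in depth. Nothing in the labels ties equal replicate numbers together. A fit with the replicate number in the model is given only among the alternatives further on. Beyond that fit, the part of this replicate difference in the comparison of genotypes was not tested. The summed level of all 39 genes was 2027 and 1616 CPM in GFI1-KO, against 1861 and 1396 CPM in WT.

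**Figure D5:**
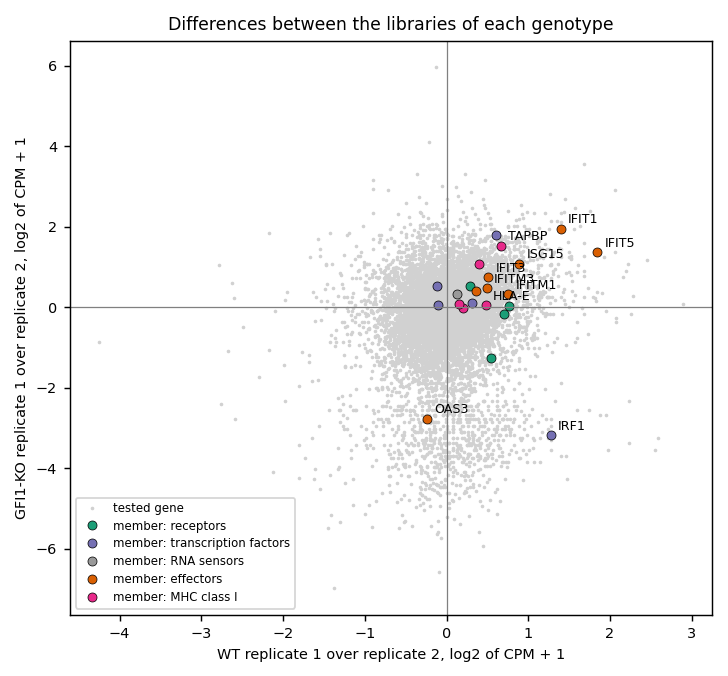
Log2 difference of replicate 1 over replicate 2, on the log2(CPM + 1) scale, within GFI1-KO (vertical) and within WT (horizontal), for all genes tested (grey) and for the 23 genes of the list (coloured by role). Most coloured points lie where both differences are above 0; IRF1 and OAS3, with 0 counts in GFI1-KO replicate 1, lie low.

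Other genes of the pathway, 143 in all, were read in the same fit. Of the 68 tested, 2 were higher in GFI1-KO (IFI16 and PARP14), 1 was lower (LY6E) and 65 did not pass. Over the whole table, 0.958% of the genes tested passed. At an unadjusted p under 0.05, edgeR gave 9 of the 68 (13.2%), against 9.35% of all genes tested. Their log2 fold changes had a median of -0.083 over the 68 and ran from -3.00 to 1.65. No interferon was read: all 21 interferon ligand genes had 0 counts in every library, and so did the feedback protease USP18 and the chemokine CXCL10. The 5 tested JAK and STAT transducers had a median log2 fold change of -0.14, none past the threshold. JAK2, the kinase of the interferon gamma receptor, had 13.2 and 17.8 CPM in GFI1-KO, against 20.1 and 25.6 CPM in WT (edgeR adjusted p = 0.871). TYK2, which pairs with IFNAR1, had 66.2 and 93.9 CPM in GFI1-KO, against 96.9 and 106 CPM in WT (edgeR adjusted p = 0.909). SOCS3, a feedback inhibitor of cytokine receptors, had 46.4 and 190 CPM in GFI1-KO, against 71.0 and 123 CPM in WT, and overlapped. Its level in GFI1-KO replicate 1 came from 7 counts, beside 426 counts in replicate 2. The log2 fold change of SOCS3 was 0.61 (SE 0.35, edgeR adjusted p = 0.682). When a library was left out, it ran from -1.06 to 0.99, so its direction depended on the library left out.

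IFI16, an interferon-inducible sensor of DNA that also binds chromatin, had 755 and 749 CPM in GFI1-KO, against 361 and 373 CPM in WT. The libraries of each genotype nearly coincided, and IFI16 rose in GFI1-KO (adjusted p = 0.0233 by edgeR; log2 fold change 1.03, SE 0.21). Leaving out WT replicate 1 ended the call (adjusted p = 0.368), as did leaving out WT replicate 2 (adjusted p = 0.207). AIM2, a DNA sensor of the same protein family and gene cluster, had 0 and 16 counts in GFI1-KO, and 4 and 6 counts in WT, and was not tested. PARP14, an ADP-ribosyltransferase induced by interferon, had 79.5 and 58.8 CPM in GFI1-KO, against 20.5 and 19.7 CPM in WT. PARP14 rose (adjusted p = 0.0154 by edgeR; log2 fold change 1.65, SE 0.31), a call lost with DESeq2 (adjusted p = 0.237) and without either WT replicate (adjusted p = 0.0572 and 0.0506). PARP9 and DTX3L, interferon-induced genes near PARP14 on chromosome 3, had 1 and 4, and 0 and 6 counts in GFI1-KO, against 1 and 2, and 2 and 2 counts in WT, and were not tested. PARP14 holds the ISRE core printed above, while the IFI16 windows hold no match to the core. LY6E, a lipid-anchored surface protein induced by interferon, had 66.2 and 73.4 CPM in GFI1-KO, against 197 and 134 CPM in WT. LY6E fell (adjusted p = 0.0474 by edgeR; log2 fold change -1.20, SE 0.27), a call close to the threshold that was lost under 7 of 14 alternatives, among them DESeq2 (adjusted p = 0.288) and leaving out WT replicate 1 (adjusted p = 0.762). All 3 genes lie on different chromosomes and moved in opposite directions, 2 up and 1 down, in a fit where 0.773% of all genes passed as higher and 0.185% as lower.

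Among genes that load and regulate MHC class I, 10 of 13 were tested and none passed. ERAP1, the aminopeptidase that trims peptides, had 46.4 and 54.3 CPM in GFI1-KO, against 32.2 and 30.6 CPM in WT, without overlap (log2 fold change 0.75, SE 0.29; edgeR adjusted p = 0.332). NLRC5, the transactivator of MHC class I genes, had 6.62 and 5.79 CPM in GFI1-KO, against 1.79 and 2.94 CPM in WT, where the GFI1-KO replicate 1 value is a single count (edgeR adjusted p = 0.648).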

How the data were processed

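RNA was sequenced from 2 GFI1-KO and 2 WT libraries, made per the labels' protocols from Trizol-extracted total RNA with an Illumina TruSeq kit. The deposited values are raw read counts per gene. The submitters' processing notes name, without roles, HTSeq 0.6.0, HISAT2 2.0.4, DESeq 1.18.1 and SAMtools 1.3.1, with hg38. Annotation, strand setting and filters: not given in the sources used here. Counts of overlapping genes are therefore uncertain. Of 19912 identifiers, 19902 matched GENCODE 29, which gave symbols, exon lengths and overlaps. Groups came from the sample titles.

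Counts were fitted with edgeR 4.0.16 (R 4.3.3), using TMM scaling, the filterByExpr filter ( minimum count 10, total 15), glmQLFit and glmQLFTest over 11380 genes, with Benjamini-Hochberg adjustment and a threshold of 0.05. Log2 fold changes use a prior count of 0.125, and their SE is the size of the unshrunken value over the square root of F. CPM use TMM-adjusted totals. Floors of 3 counts cover counting error only. The functions were tested on simulated data. The alternatives were DESeq2 1.42.0, limma-voom (limma 3.58.1), the newer dispersion form, 3 scalings, 2 filters, leaving out each library in turn, a replicate block, and removing the 20 most abundant genes. The genes named were all 39, each other pathway gene past the threshold, and otherwise some of the 3 with the smallest adjusted p per list. BST2, AIM2, PARP9, DTX3L, USP18, CXCL10, PSMB10, PSMB7 and marker genes were added after their values were seen. The list and the other gene lists were chosen with earlier results of these data known.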

Additional observations from a re-analysis of the deposited data

How the results depend on the processing

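The count of changed genes among the 39 was 0 under 13 of 14 alternatives and 1 (IFIT3; adjusted p = 0.0353) with a replicate block. Over all genes, 109 were changed in the analysis reported, 28 with DESeq2, 58 with the newer dispersion, 58 with upper-quartile scaling, 72 with library totals only, 305 without a filter, 50 with a mean of at least 5 CPM, 327 with the replicate block, and 62 to 373 when a library was left out; the cause was not tested. Of the other pathway genes, 3 were changed in the analysis reported, 1 with DESeq2, 2 to 4 with the remaining alternatives, and 1 to 5 when a library was left out. The replicate block adds the replicate number to the model. Nothing in the labels ties equal numbers together, so the numbers were not used to pair libraries. Across genes, which are not independent, the replicate differences of the 2 genotypes correlated at r = 0.112 over 11380 genes and r = 0.243 over the 4274 genes with a mean of at least 100 counts, a hint from the data and not the design. The block changed no other call among the named genes.

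The median log2 fold change of the tested genes of the list was -0.066 to 0.45 when a library was left out. Signs turned in some alternatives that kept all 4 libraries, none past the threshold: TAPBP with DESeq2 (0.12), OAS3 with limma-voom (-0.032), and with the replicate block IFIT1 (0.088, against -0.76 as reported), OAS3 (-0.095), B2M (0.017) and TAPBP (0.052). When a library was left out, log2 fold changes spanned 0 for IFNAR1 (-1.29 to 0.091), IFNGR2 (-0.75 to 0.016), IRF2 (-0.13 to 1.76), IRF3 (-0.021 to 0.53), ISG15 (-0.19 to 1.01), IFIT1 (-1.18 to 1.12), IFIT5 (-0.29 to 1.93), IFITM1 (-0.018 to 0.76), IFITM2 (-0.30 to 0.11), OAS3 (-6.01 to 0.22), HLA-B (-0.67 to 0.48), B2M (-0.066 to 0.078), TAPBP (-0.63 to 0.93), SOCS3 (-1.06 to 0.99), GBP4 (-0.61 to 0.035) and PSMB6 (-0.19 to 0.043). With a library left out, the lone library of its genotype is assumed to vary like the others. GFI1-KO replicate 1 holds 146584 counts, so a gene under 19.9 CPM is below 3 counts there. The 16 genes not tested together had 3 and 22 counts in GFI1-KO and 20 and 29 counts in WT, so they were low in the deeper libraries too.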

Other observations

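The 143 other pathway genes included MHC class II genes and interferon gamma targets, described here by gene. Of 8 MHC class II genes, 3 were tested and none passed. HLA-DPA1 had 6.62 and 11.1 CPM in GFI1-KO, against 19.6 and 14.7 CPM in WT (log2 fold change -0.68, SE 0.45; edgeR adjusted p = 0.752), and HLA-DPB1 had 6.62 and 14.7 CPM in GFI1-KO, against 17.9 and 19.7 CPM in WT (edgeR adjusted p = 0.862). Both genes were lower in both GFI1-KO libraries, and the GFI1-KO replicate 1 value of each is a single count. The 8 genes together had 2 and 81 counts in GFI1-KO, against 121 and 104 counts in WT. Of 15 interferon gamma targets, 5 were tested and none passed. GBP4, a guanylate-binding GTPase, had 86.1 and 60.1 CPM in GFI1-KO, against 104 and 65.9 CPM in WT, and overlapped (log2 fold change -0.37, SE 0.30; edgeR adjusted p = 0.831). BST2 (tetherin), which holds budding viruses at the cell surface, had 278 and 89.5 CPM in GFI1-KO, against 120 and 42.4 CPM in WT, and was thus higher in replicate 1 of both genotypes, as most tested genes of the list were (log2 fold change 0.83, SE 0.47; edgeR adjusted p = 0.669).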
